A study of Mus musculus with 8 samples.

Results

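The genes described here are 46 mouse nuclear receptor genes, the estrogen receptors among them, chosen by name. Of these, 42 had at least 1 probe set annotated to that symbol alone, 71 probe sets in all, among 12393 genes read by the array. The other 4 (Nr3c2, Nr1h2, Nr2e1 and Nr2e3) were not analysed here. Nuclear receptors are transcription factors that bind DNA through a zinc finger domain and, in many cases, are switched by a small ligand such as an estrogen, a glucocorticoid, a retinoid or an oxysterol. Others have no known ligand. In the testis, Sertoli cells support germ cells and are a site of steroid hormone action. Bisphenol A (BPA), a building block of some plastics and resins, binds the estrogen receptors weakly and the orphan estrogen-related receptor gamma tightly.

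The cells were TTE3, a Sertoli cell line from transgenic mice whose SV40 large T antigen is temperature-sensitive, so all groups share that transgene and come from 1 line. They were exposed to 0.2 mM BPA for 0, 3, 6 or 12 h, with 2 Affymetrix arrays at each time and 8 in all. Precision is limited by this small number. The labels name no array without BPA at 3, 6 or 12 h, so each change combines BPA with time in culture. Nothing in them tells if a pair of arrays stems from separate cultures, and p-values therefore rest on a spread between samples that may be technical only.

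Arrays of a time correlated at 0.974 (6 h) to 0.984 (0 h) over the genes tested. Of 19 Sertoli cell markers on the array, 12 passed the filter on low signal described below, among them Wt1, Gata4, Kitl and Clu. Amh, Fshr, Cldn11, Gdnf, Dhh, Dmrt1 and Aard did not, so these defining Sertoli genes were near background in this line. Of 14 germ cell markers 3 passed, of 5 Leydig cell markers 1 (Star), of 8 macrophage markers 4 and of 8 peritubular and fibroblast markers 5. The summed signal of the peritubular and fibroblast markers was 9718 to 9765 at 0 h and 4535 to 5351 at 12 h, that of the Sertoli markers 27890 to 28497 and 25319 to 26047, and that of the germ cell markers 860.1 to 867.7 and 560.4 to 561.7. The Sertoli sum hides changes in both directions. In that list 3 genes were called higher at 12 h (Sox9, Gata4 and Tjp1) and 3 lower (Clu, Inhbb and Cdh2), 50% of those tested against 38.4% of all genes. Clu read 7747 and 7554 at 0 h and 3089 and 3729 at 12 h. Vim, the highest in signal, was not called (limma adjusted p = 0.237). In the peritubular and fibroblast list only Col1a1 and Dcn were called lower at 12 h. Acta2, Des and Col1a2 were not (limma adjusted p = 0.836, 0.984 and 0.471). Dcn made up most of the sum of that list, with 8440 and 8423 at 0 h and 3909 and 4671 at 12 h. In the germ cell list Kit alone was called lower (567.5 and 523.4 at 0 h, 169.8 and 289.3 at 12 h), and 11 of 14 genes did not pass the filter. The Leydig markers summed to 509.0 to 511.5 at 0 h and 486.5 to 615.7 at 12 h, and the macrophage markers to 750.5 to 780.0 and 764.4 to 764.7. The part of these shifts in the changes below was not tested. In RNA from a whole culture, fewer cells that make a transcript and less of it per cell cannot be told apart.

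The receptor with the largest change was Nr4a1 (NUR77), an orphan receptor that is known as an immediate early gene. It and Nr1d1 (REV-ERB alpha), a heme-binding repressor of the circadian clock, were the 2 receptors called higher at 3 h (test described below). Their promoters, the 250 bases before the start of transcription in RefSeq on GRCm38.p6, are shown because these 2 genes were called at 3 h. Capitals mark TGCGTCA, a variant of the cAMP response element that CREB and ATF factors bind. Nr4a1 lies at chr15:101266596-101266845 on the plus strand and Nr1d1 at chr11:98775378-98775627 on the minus strand, both read 5′ to 3′ along the gene.
Nr4a1: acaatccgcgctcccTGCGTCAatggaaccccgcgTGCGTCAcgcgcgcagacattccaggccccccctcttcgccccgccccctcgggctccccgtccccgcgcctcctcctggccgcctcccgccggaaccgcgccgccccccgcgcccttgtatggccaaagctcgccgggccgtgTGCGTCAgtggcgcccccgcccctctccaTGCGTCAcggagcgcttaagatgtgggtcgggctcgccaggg
Nr1d1: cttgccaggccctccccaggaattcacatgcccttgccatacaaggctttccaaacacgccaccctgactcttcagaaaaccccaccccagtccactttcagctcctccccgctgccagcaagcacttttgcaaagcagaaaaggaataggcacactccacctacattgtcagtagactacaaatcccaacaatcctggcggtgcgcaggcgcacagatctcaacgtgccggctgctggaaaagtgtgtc

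The Nr4a1 window held TGCGTCA 4 times on the gene's own strand, with first bases 235, 215, 71 and 42 bases before the start. This motif was chosen after that sequence had been read. On either strand it occurred in 1.75% of 32851 mouse promoter windows of the same length, in 574 windows, and that of Nr4a1 was the 1 window with 4 or more copies. Of 63 windows of 42 receptor genes, those of the list with an entry, no other held it. The full cAMP response element TGACGTCA, in 1.55% of all windows, was found among the receptors in Nr2e1 alone. The AGGTCA core of nuclear receptor elements, in 14% of all windows, was found in 11 of the 63 receptor windows (10 genes). TATAAA (12.4% of all windows) was in 8 of these 63 and the E-box CACGTG (6.02%) in 5. No motif contains another. The Nr1d1 window held none of these 5 strings and has no capitals, which says only that these letters are not in it.

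Signals are the authors' probe set intensities on a linear scale, with 1 probe set, that of the highest mean log2 signal, standing for each gene. The median of all probe sets that are not controls was 150.5 to 169.6 on the 8 arrays. Of the 42 receptors 12 (28.6%) were above it on all 8 arrays, against 48.3% of all genes. In order of mean signal these were Nr3c1, Nr1d2, Rxrb, Nr4a1, Nr2f6, Rarg, Thra, Nr5a1, Nr2c1, Nr1h4, Esrra and Nr2f2. Another 6 (Nr1d1, Nr0b2, Rxra, Nr2c2, Rora and Nr2f1) were above the median on some arrays. A group of 9 stayed below it on all arrays but above the filter: Esrrg, Rara, Hnf4a, Nr1i2, Nr6a1, Nr5a2, Nr4a2, Esrrb and Nr1h3. The last 15 had a mean at or below the 30th percentile of genes, a signal of 47.6, and are called near background here: Thrb, Vdr, Rarb, Rorb, Nr4a3, Esr1, Rxrg, Pgr, Esr2, Nr1i3, Pparg, Ppara, Nr0b1, Hnf4g and Ppard. The value table used here holds no detection calls. For scale, the probe sets for the bacterial Trp transcript read 0.7 to 27.1, while those for the bacterial Dap, Lys, Phe and Thr transcripts, which some protocols spike into samples, ranged from 18.2 to 868.2. Levels of different probe sets depend on their sequences, so the order of genes is approximate.

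**Figure D1:**
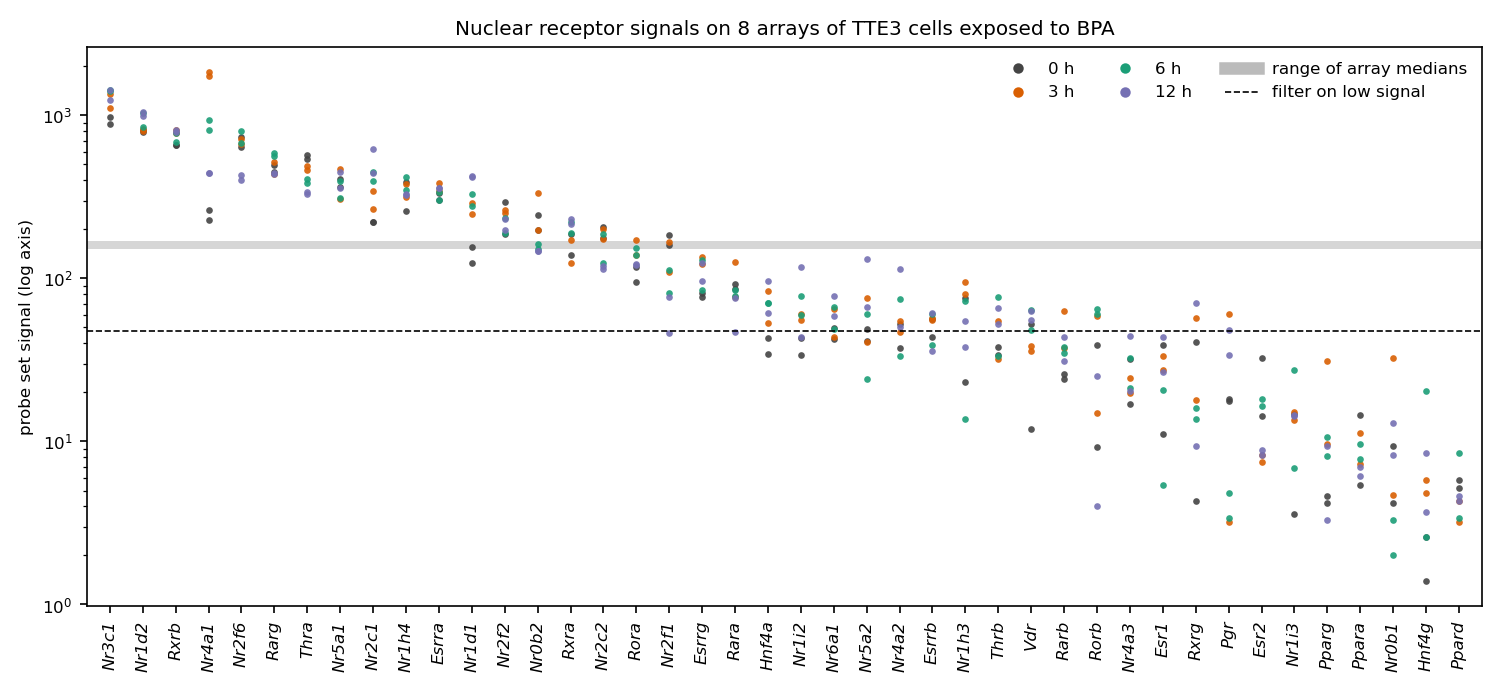
Signal of each of the 42 receptors (x axis, ordered by mean log2 signal) on the 8 arrays (points, coloured by time; log axis), with the range of the array medians (grey band, 150.5 to 169.6) and the filter on low signal (dashed line, 47.6). The 12 receptors above the median on every array lie between Nr3c1 and Nr2f2, with Nr1d1 among them in order though not above it on all, and Esr1, Esr2 and Pgr sit among the 15 near background.

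The classical estrogen receptors were near background. Esr1, which encodes estrogen receptor alpha, read 11.1 and 39.1 at 0 h, 27.6 and 33.5 at 3 h, 5.4 and 20.8 at 6 h, and 26.8 and 43.9 at 12 h. Esr2, which encodes estrogen receptor beta, read 32.3 and 14.4, then 7.5 and 8.3, then 18.2 and 16.4, and 8.9 and 8.2 at 12 h. Pgr, the progesterone receptor gene and a classical estrogen target, read 18.3 and 17.7, then 3.2 and 60.9, then 4.8 and 3.4, and 48.4 and 33.7. For all 3 genes every array was below the array median. The later arrays of Esr1 overlapped with its 0 h arrays at each time, while both Esr2 arrays at 3 h and at 12 h were below, and both Pgr arrays at 12 h above, those at 0 h. None of these 3 genes was tested with the filter in place. Without the filter these differences were not called. The limma adjusted p was 0.34 and 0.252 for Esr2 at 3 and 12 h, and 0.451 for Pgr at 12 h. Each was read by a single probe set, so its low level rests on that probe set alone.

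The estrogen-related receptors are orphan relatives that regulate mitochondrial and metabolic genes. Esrra was above the median throughout, with signals of 303.2 and 334.1 at 0 h, 341.5 and 384.2 at 3 h, 303.2 and 337.2 at 6 h, and 359.0 and 356.1 at 12 h. Its log2 changes were 0.18, 0.01 and 0.16 ± 0.15 (SE; limma adjusted p = 0.507, 0.982 and 0.442), the value at 6 h turning negative under other scalings. Esrrg, which encodes the receptor that binds BPA tightly, read 76.4 and 81.2 at 0 h, 123.0 and 135.2 at 3 h, 84.3 and 129.7 at 6 h, and 124.1 and 95.8 at 12 h. Every later array was above both 0 h arrays, but the changes of 0.66, 0.38 and 0.43 ± 0.30 did not pass the test (adjusted p = 0.182, 0.392 and 0.282). Of the 27 receptors tested, 11, 12 and 14 had both arrays above those of 0 h at 3, 6 and 12 h. Both were below in 1, 4 and 7. The share of all genes that separate in this way was not counted, so these counts are descriptive only. Esrrb, known from pluripotent cells, read 35.7 to 61.0 by its brighter probe set and 11.9 to 42.8, near background, by the other. The brighter one had changes of 0.15, -0.03 and -0.08 ± 0.45, with a sign that was not stable.

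Changes were tested on log2(signal + 7.9), a scale on which low genes appear to change less than they do, in a linear model over 8675 genes above the filter; 27 of the 42 receptors (64.3%) were among them, against 70% of all genes. A gene with a Benjamini-Hochberg adjusted p under 0.05 over all genes tested was called. At 3 h 2 receptors were called higher and 0 lower (7.41% of 27; of all genes 12.1% were called, 8.55% higher and 3.53% lower). At 6 h 4 were higher and 1 lower (18.5%; of all genes 26.5%, with 16.8% higher and 9.73% lower). At 12 h 5 were higher and 4 lower (33.3%; of all genes 38.4%, with 20.9% higher and 17.5% lower). These shares are near those of all genes, and no difference between them was tested. Leaving out replicate 1 at 0 h, or replicate 2 of the 3 h arrays, lowered the count at 3 h to 1. Leaving out replicate 2 at 0 h lowered that at 6 h to 3. Between 3 and 12 h 2 receptors rose and 5 fell (of all genes 21.9% were called, 9.52% higher and 12.4% lower). With arrays scaled to the same median these were 4 and 3. That scaling also turned the split of calls over all genes, from 742 higher and 306 lower to 462 and 645 at 3 h, from 1455 and 844 to 1054 and 1199 at 6 h, and from 826 and 1075 to 1411 and 770 between 3 and 12 h. Their total was 4 without replicate 1 at 3 h or at 12 h, 3 when replicate 2 at 3 h was dropped and 2 when replicate 2 at 12 h was. The median change of the tested receptors against 0 h was 0.18, 0.16 and 0.19 at 3, 6 and 12 h, beside 0.06, 0.07 and 0.06 for all genes. Over the time course, the moderated F test called 7 of the 27, and 35.8% of all genes. Scaling the arrays to the same median would move every change by about -0.13 at 3 h, -0.11 at 6 h and -0.01 at 12 h. The 15 receptors left out of the test had no call at any time when the filter was dropped (limma; lowest adjusted p = 0.252), and 0 of them had an unadjusted p under 0.05.

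**Figure D2:**
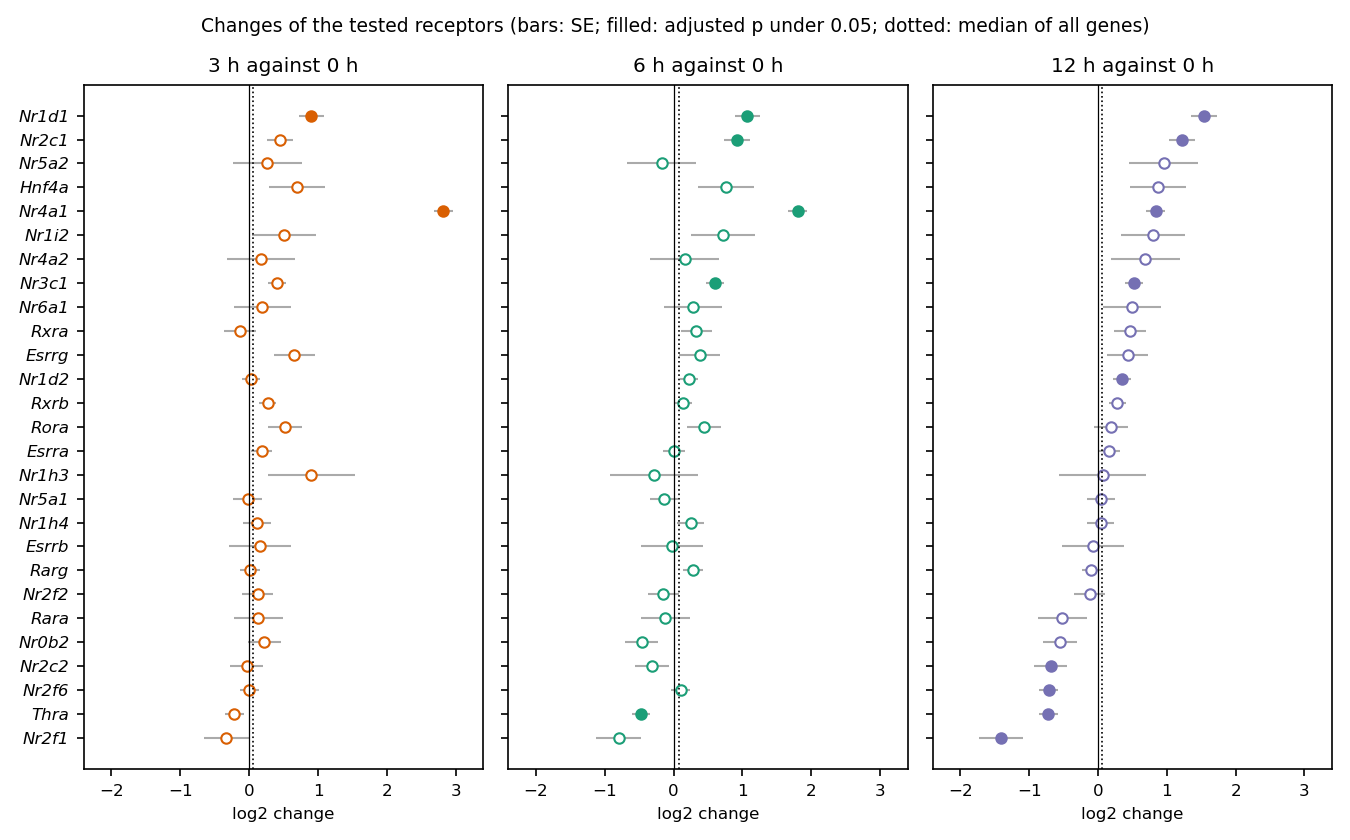
Log2 change of the 27 tested receptors at 3, 6 and 12 h against 0 h (points; bars are SE; filled points have an adjusted p under 0.05), ordered by the change at 12 h, with the median of all genes as a dotted line. Nr4a1 stands at 2.82 at 3 h and falls back to 0.84 at 12 h, Nr1d1 climbs to 1.54, and Nr2f1 ends lowest at -1.41.

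Nr4a1 rose within 3 h and then fell back in steps. Its signal was 227.4 and 264.6 at 0 h, 1834.4 and 1734.2 at 3 h, 942.8 and 810.5 at 6 h, and 442.4 and 445.6 at 12 h. No array of 1 time overlapped with those of another, and the 3 h arrays were the highest. Against 0 h the change was 2.82 ± 0.13 at 3 h (adjusted p = 2.05e-08), 1.80 ± 0.13 at 6 h (7.31e-07) and 0.84 ± 0.13 at 12 h (0.000308). The falls from 3 to 6 h (-1.02 ± 0.13, adjusted p = 0.00248) and from 6 to 12 h (-0.96 ± 0.13, adjusted p = 0.00207) were called too. That from 3 to 6 h was not called when the intensity trend was left out of the model (adjusted p = 0.0702). It was the 1 receptor called at that step, when 1.12% of all genes were called (0.565% higher and 0.553% lower). With Nr2f6 it made the 2 called from 6 to 12 h, both lower (4.77% of all genes, with 0.922% higher and 3.85% lower). For that step the split over all genes was 80 higher and 334 lower, and 184 and 199 with arrays scaled to the same median.

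The relatives of Nr4a1, which bind the same DNA element, were not called. Nr4a2 (NURR1) was read at 33.3 to 114.2 by its brighter probe set, with changes of 0.17, 0.16 and 0.69 ± 0.50 (adjusted p = 0.873, 0.85 and 0.306). Nr4a3 (NOR1) was near background at 16.9 to 44.6, and both of its 3 h arrays (19.9 and 24.5) lay between its 0 h arrays (16.9 and 31.9). By its dimmer probe set, also near background, the 3 h arrays (11.1 and 11.5) were above those at 0 h (3.5 and 8.1).

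**Figure D3:**
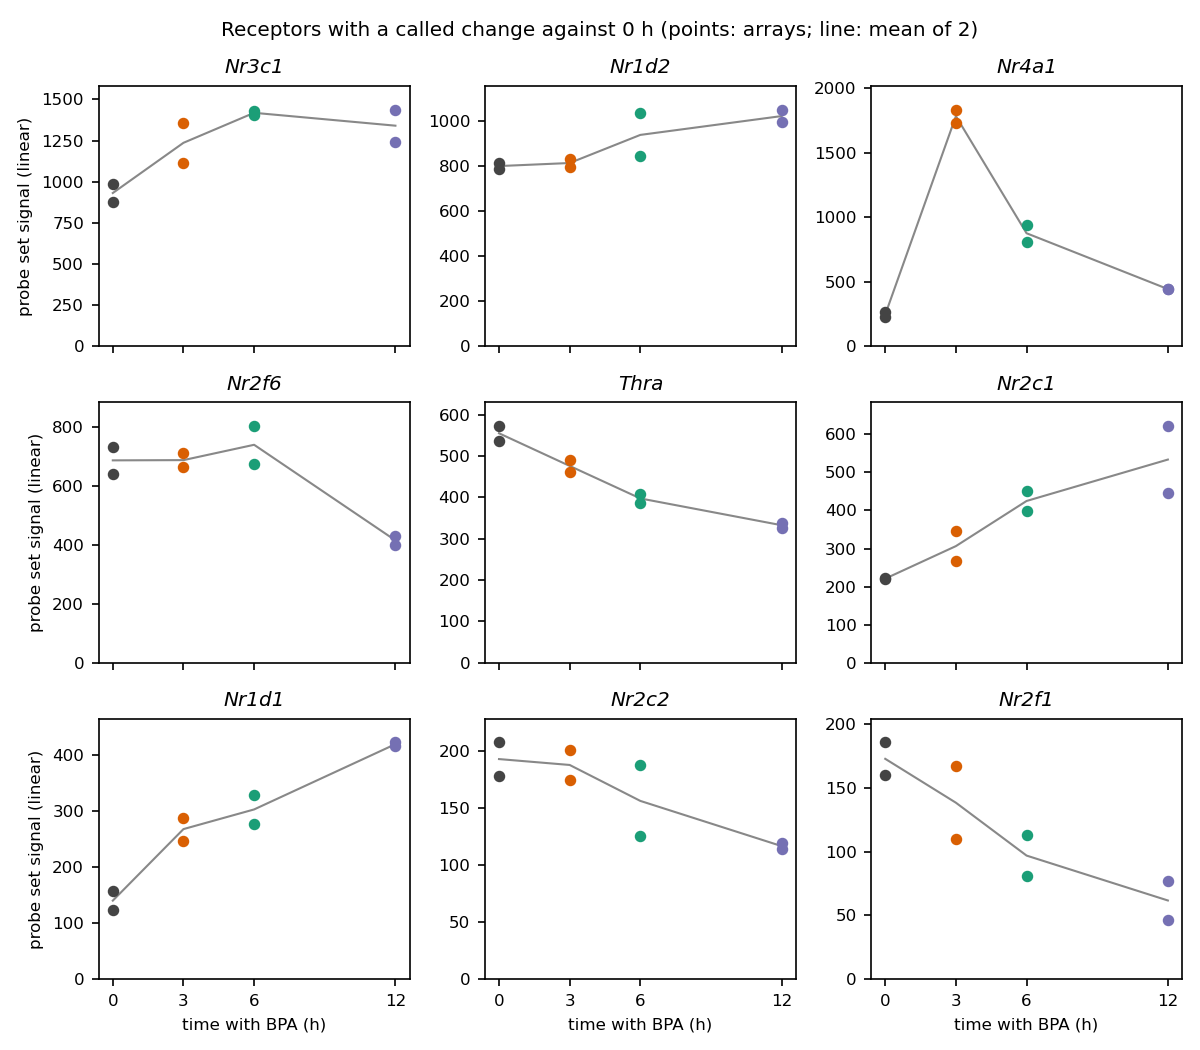
Signals (linear axis from 0) of the 9 receptors called at any time against 0 h, by hours with BPA; points are arrays and lines join the means of 2. Nr4a1 peaks at 3 h with 1734.2 and 1834.4, while Nr1d1 and Nr2c1 climb, and Thra and Nr2f1 decline, to 12 h.

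The REV-ERB genes encode repressors that compete with the ROR receptors for the same sites and hold down Arntl (BMAL1). Nr1d1 had signals of 123.8 and 156.7 at 0 h, 247.7 and 288.5 at 3 h, 329.3 and 277.2 at 6 h, and 416.8 and 423.1 at 12 h. Every exposed array was above both 0 h arrays, and the 12 h arrays were the highest. It rose by 0.90 ± 0.18 at 3 h (adjusted p = 0.00636), 1.07 ± 0.18 at 6 h (0.000882) and 1.54 ± 0.18 at 12 h (2.89e-05). Its call at 3 h did not hold without replicate 1 at 0 h (0.74, adjusted p = 0.075) or replicate 2 at 3 h (0.80, adjusted p = 0.0643).

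Nr1d2 (REV-ERB beta) read 813.2 and 787.2 at 0 h, 797.9 and 829.6 at 3 h, 842.8 and 1034.2 at 6 h, and 1050.5 and 993.7 at 12 h. Its rise at 12 h was small, 0.35 ± 0.13 (adjusted p = 0.0454), and did not pass under 11 of 19 alternatives (adjusted p up to 0.182). A dimmer probe set of Nr1d2, 1416959_at, went from 63.2 and 82.4 at 0 h to 137.5 and 155.4 at 6 h and 135.9 and 134.3 at 12 h. Tested with all probe sets, it rose by 0.94 ± 0.29 at 6 h (adjusted p = 0.0328) and 0.84 ± 0.29 at 12 h (0.0391).

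Rora, a ROR activator of clock genes, was read by 3 probe sets above the filter that differ. The brightest, 1424034_at, read 117.9 and 94.6 at 0 h and 121.5 and 122.4 at 12 h, a change of 0.19 ± 0.25 (adjusted p = 0.578). Probe set 1420583_a_at read 55.4 and 53.1 at 0 h and 159.4 and 103.7 at 12 h, and rose by 1.14 ± 0.30 (adjusted p = 0.012, over all probe sets). Probe set 1424035_at had a change of 0.50 ± 0.47. Rorb was near background.

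This gene list and those below were chosen with earlier results of these data known, so their shares and medians are descriptive only. Of 16 listed genes of the clock on the array 13 were tested. Of these, 6 rose and 0 fell at 3 h, with 5 and 1 at 6 h and 6 and 2 at 12 h (61.5% called at 12 h, against 38.4% of all genes, with a median of 0.43). Arntl, the target the REV-ERBs repress, rose by 1.31 ± 0.18 at 12 h (adjusted p = 8.21e-05) alongside Nr1d1. Nfil3, a repressor that binds D-box elements, rose by 2.35 ± 0.13. Cry2, a cryptochrome gene, was called higher at 12 h (102.2 and 153.4) than at 0 h (44.6 and 11.7; adjusted p = 0.00546). Its 0 h signals were below the filter, so the size of the rise is not defined, and the call did not hold without replicate 2 at 0 h (adjusted p = 0.0628).

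Thra, the thyroid hormone receptor alpha gene, declined from 573.0 and 537.9 at 0 h to 490.4 and 462.4 at 3 h, 409.2 and 386.2 at 6 h, and 338.5 and 327.2 at 12 h. The arrays of the 4 times did not overlap, and each later time was lower. It fell by 0.47 ± 0.14 at 6 h (adjusted p = 0.021) and by 0.72 ± 0.14 at 12 h (0.000996). Its call at 6 h did not hold when replicate 1 or 2 at 0 h (adjusted p = 0.138 and 0.0731) or replicate 2 at 6 h (0.0791) was left out, nor over the mean of its probe sets (0.111). Its dimmer probe set, 1426997_at, fell by 0.89 ± 0.28 at 12 h (adjusted p = 0.0258). Thra and Nr1d1, which moved in opposite directions, overlap in the RefSeq annotation. Thrb was near background, at 32.2 to 77.1.

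Nr2c1 and Nr2c2 encode the testis receptors TR2 and TR4, orphan receptors that bind direct repeats as a pair. Nr2c1 read 220.3 and 221.4 at 0 h, 267.3 and 345.4 at 3 h, 397.5 and 452.3 at 6 h, and 445.6 and 621.8 at 12 h. Every exposed array was above both 0 h arrays. It rose by 0.92 ± 0.19 at 6 h (adjusted p = 0.00305) and 1.22 ± 0.19 at 12 h (0.000221), and by 0.51 and 0.75 over the mean of its probe sets. Its other probe set, 1449157_at, read 256.3 and 285.2 at 0 h and 312.7 and 345.6 at 12 h, a change of 0.27 ± 0.18 that was not called (adjusted p = 0.264). Nr2c2 read 207.1 and 177.9 at 0 h, 174.2 and 200.5 at 3 h, 187.0 and 124.8 at 6 h, and 113.8 and 118.9 at 12 h by its brightest probe set, 1451569_at. Another above the filter, 1425014_at, read 190.1 and 181.1 at 0 h and 155.3 and 103.0 at 12 h. Its change of -0.52 ± 0.24 was not called (adjusted p = 0.114, over all probe sets). Those near background, 1449605_at and 1454167_at, had changes of 0.09 and 0.53 at 12 h. By 1451569_at both 12 h arrays were below every other array, and the fall of 0.69 ± 0.24 was called (adjusted p = 0.0378). It was lost without either 0 h or 12 h array (0.0791 to 0.196), without a filter (0.0914) and over the mean of its probe sets (-0.15, adjusted p = 0.751).

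The COUP-TF group encodes orphan receptors that mostly repress, with Nr2f1 and Nr2f2 active in mesenchymal cells. Nr2f1 read 160.0 and 185.8 at 0 h, 110.0 and 166.9 at 3 h, 81.1 and 112.8 at 6 h, and 77.3 and 46.1 at 12 h. The 6 and 12 h arrays were below both 0 h arrays. Of the peritubular and fibroblast markers Dcn (8440 and 8423 at 0 h, 3909 and 4671 at 12 h) and Col1a1 (1037 and 913.7, then 315.3 and 344.1) fell too. In the same list Acta2, Des and Col1a2 were not called at 12 h, and Myh11, Cnn1 and Tagln did not pass the filter. The part of these markers in the changes was not tested. Nr2f1 fell by 1.41 ± 0.32 at 12 h (adjusted p = 0.00373), and its change at 6 h was -0.80 ± 0.32 (0.0887). Nr2f6 read 640.8 and 732.8 at 0 h, 663.5 and 711.7 at 3 h, 803.3 and 676.0 at 6 h, and 429.8 and 400.6 at 12 h. Its 12 h arrays stood apart below the other 6. It fell by 0.71 ± 0.14 against 0 h (adjusted p = 0.00121), and by 0.82 ± 0.14 from 6 to 12 h (0.00522). The alternative probe set of Nr2f6, 1460647_a_at, read 323.1 and 234.1 at 0 h and 412.3 and 195.3 at 12 h (0.05 ± 0.33), and over the mean of both the change was -0.33 and not called (adjusted p = 0.188), as was that from 6 to 12 h (-0.56, adjusted p = 0.121).

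Nr2f2 was not called by its brightest probe set, 1416159_at, which read 293.7 and 186.6 at 0 h and 199.3 and 231.4 at 12 h (-0.12 ± 0.22). Probe set 1416158_at read 311.6 and 217.7 at 0 h, 119.1 and 210.9 at 3 h, 149.3 and 82.2 at 6 h, and 97.1 and 125.9 at 12 h. Tested over all probe sets it fell by 1.17 ± 0.34 at 6 h (adjusted p = 0.0253) and 1.18 ± 0.34 at 12 h (0.0165). The probe sets of Nr2f2 thus gave different calls, and the transcripts each reads were not analysed here.

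**Figure D4:**
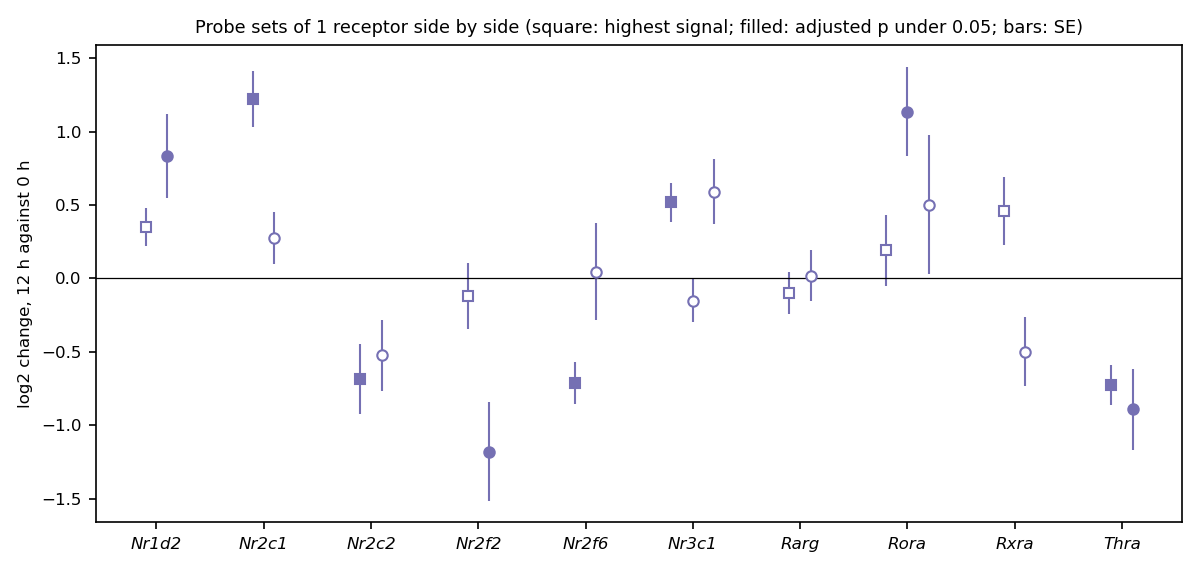
Log2 change at 12 h against 0 h of every probe set above the filter for the 10 receptors with more than 1 (square, the probe set with the highest mean signal; circle, the others; bars are SE; filled, adjusted p under 0.05 over all probe sets). The probe sets of Thra both lie below 0, while those of Nr2f2, Nr2c1 and Rora differ in size. In 4 receptors (Nr2f6, Nr3c1, Rarg and Rxra) the probe sets lie on both sides of 0. Nr1d2 has an open square because its adjusted p over all probe sets was 0.0551.

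Nr3c1, the glucocorticoid receptor gene, had the highest mean signal of the receptors. It read 983.3 and 879.4 at 0 h, 1358.8 and 1113.8 at 3 h, 1429.8 and 1407.2 at 6 h, and 1243.1 and 1437.6 at 12 h. All exposed arrays were above both 0 h arrays. The change was 0.40 ± 0.13 at 3 h (adjusted p = 0.0655), and it rose by 0.60 ± 0.13 at 6 h (0.00428) and 0.52 ± 0.13 at 12 h (0.00664). Both calls were lost without replicate 2 at 0 h (0.0547 and 0.0747) and over the mean of its probe sets (0.0701 and 0.0935), and that at 12 h without replicate 2 at 12 h (0.0648). Probe set 1421866_at gave 0.54 and 0.59 ± 0.22 at 6 and 12 h, and 1460303_at -0.02 and -0.15 ± 0.15. Of 17 tested genes listed as glucocorticoid targets 8 rose and 0 fell at 3 h, 8 and 3 at 6 h, and 10 and 3 at 12 h (76.5% called, against 38.4% of all genes; median 0.93). Tsc22d3 (GILZ), an anti-inflammatory target, rose by 2.19 ± 0.15 at 12 h. The metallothionein gene Mt2 (2.50) and the EGF receptor inhibitor gene Errfi1 (2.10), which also respond to metals and growth factors, rose too. The 3 targets that fell at 12 h were Klf9 (-1.03 ± 0.12), Sgk1 (-0.82 ± 0.18) and Dusp1 (-0.70 ± 0.11). Among those not called at 12 h were Fkbp5 (0.26 ± 0.12, adjusted p = 0.100) and Per1 (-0.42 ± 0.20, adjusted p = 0.122).

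The retinoid and lipid receptors gave no call. Rxrb, a shared partner of many receptors, read 658.4 to 818.3, with changes of 0.27, 0.14 and 0.28 ± 0.12 (adjusted p = 0.186, 0.443 and 0.0879). Rarg, a retinoic acid receptor gene, read 436.5 to 590.6, and Rara 47.1 to 126.7. Rarb, a retinoic acid target itself, and Rxrg were near background. Of the oxysterol and bile acid receptors, Nr1h4 (FXR) read 258.6 to 417.5 and Nr1h3 (LXR alpha) 13.8 to 95.3. Ppara, Ppard and Pparg, the fatty acid receptor genes, were near background, between 3.2 and 31.3. Nr5a1 (SF-1), a regulator of steroidogenic genes, read 308.3 to 468.4 by 1418315_at and 2.9 to 17.6 by 1421730_at, so its level rests on 1 of 2 probe sets. Nr0b1 (DAX-1), a corepressor of SF-1, was near background at 2.0 to 32.6. Nr0b2 (SHP), a receptor without a DNA-binding domain, read 245.3 and 198.3 at 0 h, 198.6 and 335.6 at 3 h, 152.2 and 163.3 at 6 h, and 147.9 and 148.0 at 12 h. Its 6 and 12 h arrays were below both 0 h arrays, but no change against 0 h was called (-0.55 ± 0.24 at 12 h, adjusted p = 0.0927).

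Receptors act through coactivators and corepressors, and some need chaperones to bind their ligand. Of 22 tested coactivators 1 rose and 0 fell at 3 h, and 7 rose and 6 fell at 12 h (59.1% called at 12 h; median 0.08). Of all genes 12.1% were called at 3 h and 38.4% at 12 h. Kat2b, a histone acetyltransferase gene, fell by 1.39 ± 0.14. Med1, the Mediator subunit that docks on receptors, fell by 1.13 ± 0.15 (-0.24 and not called over the mean of its probe sets). Ppargc1b, which encodes the coactivator PGC-1 beta, was called lower at 12 h (15.6 and 15.7) than at 0 h (98.5 and 86.0; adjusted p = 0.0135), but the 12 h signals were within the range of the Trp controls and give no size. Of 17 tested genes listed as corepressors 3 rose and 0 fell at 3 h. At 12 h 5 rose and 2 fell (41.2%, against 38.4% of all genes, with a median of 0.05). In this list Trim24 rose by 0.75 ± 0.13 and Pelp1, a scaffold of estrogen receptor, by 0.76 ± 0.17. Tbl1xr1, a subunit of the NCoR complex, fell by 0.76 ± 0.18. Whether each listed gene represses in these cells was not tested. The calls of Pelp1 and Tbl1xr1 were lost over the mean of their probe sets (adjusted p = 0.41 and 0.356), and that of Tbl1xr1 also without replicate 2 at 0 h. Of 14 chaperones of receptor complexes 1 rose and 0 fell at 3 h, and 3 rose and 0 fell at 12 h (21.4%, against 38.4% of all genes; median 0.24). Those called at 12 h were Fkbp4 (0.59 ± 0.14), Dnajb1 (0.56 ± 0.11) and Hspa8 (0.53 ± 0.10). The calls of Fkbp4 and Dnajb1 were lost over the mean of their probe sets (adjusted p = 0.166 and 0.724), and that of Fkbp4 also without replicate 1 at 0 h.

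Of 17 tested genes listed as estrogen receptor targets in other tissues 3 rose and 1 fell at 3 h, 5 and 3 at 6 h, and 6 and 3 at 12 h (52.9% called, against 38.4% of all genes; median 0.17). Fos, an immediate early gene with many inducers, rose by 2.84 ± 0.12, and the chemokine gene Cxcl12 fell by 2.28 ± 0.11. The water channel gene Aqp5 was called lower at 12 h (20.4 and 14.0) than at 0 h (116.0 and 83.0; adjusted p = 0.024), with 12 h signals within the range of the Trp controls that give no size. The call of Aqp5 was lost without either 12 h array or the intensity trend (adjusted p up to 0.0887). Of 10 liver X receptor targets 2 rose and 0 fell at 3 h, and 5 rose and 2 fell at 12 h (70%, against 38.4% of all genes; median 0.40). Fasn (1.24 ± 0.11) and Scd1 (0.95 ± 0.12), lipid synthesis genes that SREBP factors drive too, rose. Abca1, the cholesterol exporter gene, fell from 260.7 and 281.0 at 0 h to 38.1 and 38.7 at 12 h (adjusted p = 1.74e-05), where it was below the filter. Of 8 PPAR targets 1 rose and 2 fell at 12 h (37.5%, against 38.4% of all genes; median -0.05): Angptl4 rose by 1.43 ± 0.27, and Cpt1a and Slc25a20, genes of fatty acid import into mitochondria, fell by 0.96 ± 0.13 and 0.37 ± 0.13. The call of Slc25a20 was lost under 5 alternatives, with a change of -0.05 over the mean of its probe sets. Of 5 retinoic acid targets 1 rose at 3 h and 0 fell, and at 12 h 1 rose (Rai14, 0.50 ± 0.11) and 2 fell (60%, against 38.4% of all genes; median 0.20), Dhrs3 by 0.59 ± 0.13 and Rai1 by 0.66 ± 0.16, the latter lost without replicate 2 at 0 h (adjusted p = 0.0688). The partner and target lists share Angptl4, Fkbp5, Per1 and Pdk4 among themselves.

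**Figure D5:**
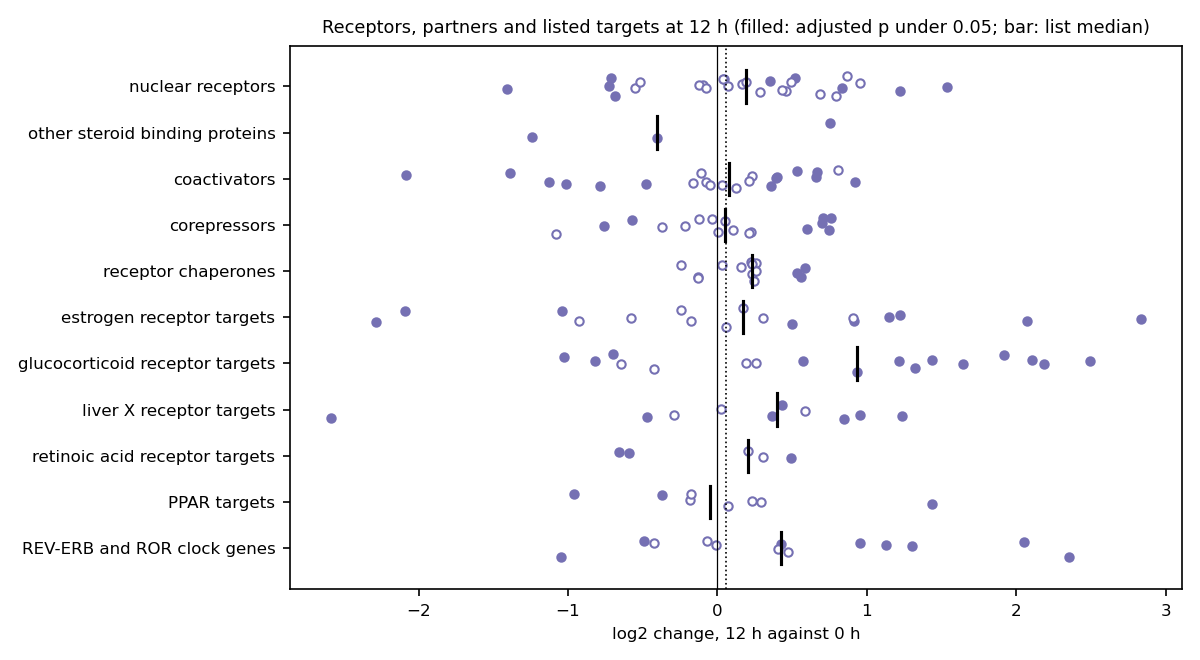
Log2 change at 12 h against 0 h of the tested receptors (top row) and of the tested genes of 10 lists of partners and targets (points, spread vertically for legibility; filled, adjusted p under 0.05; black bars, list medians; dotted line, median of all genes). The glucocorticoid target list has the highest median, 0.93, beside 0.19 for the receptors and 0.06 for all genes. The lists were chosen with earlier results of these data known, so their medians are descriptive only.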

How the data were processed

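The authors deposited a linear intensity for each probe set on each Mouse Expression 430A array. How it was summarised from the probes is not given in the sources used here. Without the top and bottom 2% of probe sets every array had a mean of 500.16 to 500.18, so the values look scaled to a common mean and a general change of RNA would not be seen. Of 22690 probe sets, 64 controls were left out and 20380 carried exactly 1 symbol (691 several, 1555 none); 20351 symbols were matched through Entrez identifiers to RefSeq (GRCm38.p6). The members and lists were chosen with earlier results of these data known.

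Tests used log2(signal + 7.9), where 7.9 is the 10th percentile of the deposited signals. Each gene was read by its probe set of highest mean, and genes above the 30th percentile were kept (8675 of 12393). limma 3.58.1 in R 4.3.3 fitted 1 mean per time over 8 arrays (eBayes with an intensity trend; residual df 4, prior df 9.00); tests were two-sided, Benjamini-Hochberg adjusted over all genes tested and called under 0.05. The code was tested on simulated data. Errors of log2 changes are SE from the model, with n = 2 arrays per time. Named were all members by level, members called against 0 h with every array's value, and the estrogen receptor group and Nr3c1 whatever their result. Up to 3 called genes per list were named too. Values of Nr4a2, Nr4a3, Nr0b2, Nr2f2, Rora and Rxra were added after they were seen, as were those of further list and marker genes. Alternatives were other scalings, offsets, filters, variance models, groups in the fit, probe set rules, a replicate block and leaving out each array. Promoters were taken from RefSeq, where 42 of the 46 symbols had an entry.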

Additional observations from a re-analysis of the deposited data

Results flagged for a closer look

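For 7 receptors the change at 12 h differed from that at 3 h by the contrast of these times itself (limma, adjusted p under 0.05), when 21.9% of all genes were called in that contrast; both changes share the 0 h arrays. Going from 3 to 12 h, Nr4a1 changed by -1.99 (log2; adjusted p = 1.65e-06), Nr2f6 by -0.72 (0.00288), Nr2f1 by -1.08 (0.0302), Nr0b2 by -0.77 (0.0378) and Thra by -0.51 (0.0186). Nr2c1 was higher at 12 h by 0.78 (0.0106) and Nr1d1 by 0.64 (0.0257). With the arrays scaled to the same median 4 of 7 called members were higher and 3 lower, in place of 2 and 5. The differences of Nr4a1 and Nr2f6 were called under every alternative run. That of Nr0b2 was lost under 9 alternatives (adjusted p up to 0.356), those of Nr1d1, Nr2f1 and Thra under 5 each and that of Nr2c1 under 2 (replicate 1 at 3 h left out, adjusted p = 0.102; replicate 2 at 12 h left out, 0.104).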

How the results depend on the processing

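Of 16 called changes of receptors against 0 h, 9 were called under every alternative run and 7 were lost under at least 1; none changed sign. The count of receptors called at 12 h against 3 h was 4 without a filter (7 before), that at 6 h against 3 h was 0 without the intensity trend (1 before), and that at 12 h against 6 h was 1 over the mean of probe sets (2 before). Leaving out 1 array gave 1 to 2 receptors called at 3 h, 3 to 5 at 6 h and 6 to 9 at 12 h against 0 h, and 2 to 9 at 12 h against 3 h. The count of 6 at 12 h came without replicate 2 at 0 h; the arrays behind the other low counts are named beside those counts above. Same-numbered arrays of different times share only a number: their deviations correlated at -0.0108 to 0.122. With the replicate block 3, 5 and 9 receptors were called at 3, 6 and 12 h, Nr3c1 at 3 h being added (adjusted p = 0.0427).

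Changes that were not called turned sign as follows. Esrra at 6 h was -0.09 after quantile normalization and -0.11 scaled to the same median, and -0.07 to 0.08 leaving out 1 array. Nr2f6 at 3 h was -0.03 and -0.13, and at 6 h -0.01 scaled to the same median; Nr1d2 at 3 h was -0.11. Esrrb at 3 h was -0.03 after quantile normalization and -0.21 over the mean of probe sets, and at 6 h 0.02; Nr2c2 at 3 h was 0.03 over that mean. Leaving out 1 array gave 0.00 to 0.31, -0.30 to 0.24 and -0.41 to 0.25 for Esrrb at 3, 6 and 12 h, 0.00 to 0.05 for Nr1d2 at 3 h, -0.14 to 0.07 for Nr2c2 at 3 h, and -0.09 to 0.10 and -0.02 to 0.23 for Nr2f6 at 3 and 6 h. Low signal limits what can be said of the 15 receptors near background.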

Other observations

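Of 4 listed genes of other steroid binding proteins on the array 3 were tested, and all 3, which encode membrane-associated proteins, were called at 6 h, when 26.5% of all genes were called. The other, Shbg, which encodes the secreted sex hormone binding globulin, did not pass the filter. Pgrmc2, a heme-binding relative of the progesterone receptor membrane component Pgrmc1, rose by 0.74 ± 0.14 (limma adjusted p = 0.00166), and Pgrmc1 fell by 0.36 ± 0.11 (0.0231). Paqr7, a membrane progestin receptor gene, fell by 0.56 ± 0.18 (0.0335). The 6 h calls of Pgrmc1 and Paqr7 were each lost under 5 alternatives, among them leaving out either 0 h array. Leaving out 1 array gave -0.44 to -0.28 and -0.69 to -0.42. All 3 genes were called at 12 h too, when 38.4% of all genes were called. The 12 h changes were 0.75 ± 0.14 for Pgrmc2, -0.41 ± 0.11 for Pgrmc1 and -1.24 ± 0.18 for Paqr7 (limma adjusted p = 0.000875, 0.00888 and 0.000128). For these genes alternatives were run at 6 h only.

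Rxra, which encodes the retinoid X receptor that pairs with many of the receptors above, was read by probe sets of similar signal whose 12 h values lay on opposite sides of those at 0 h. Probe set 1425762_a_at read 186.8 and 138.8 at 0 h, 171.4 and 123.8 at 3 h, 190.6 and 220.4 at 6 h, and 233.0 and 216.4 at 12 h. Probe set 1454773_at read 174.5 and 179.7, then 185.6 and 220.5, then 175.5 and 121.9, and 114.7 and 131.8 at 12 h. The 12 h arrays of the former were above, and those of the latter below, both of their own 0 h arrays. Neither change at 12 h was called (0.46 ± 0.23, adjusted p = 0.136; -0.50 ± 0.23, adjusted p = 0.122). The difference between the probe sets was not tested.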
